A study of Mus musculus with 46 samples.

Results

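The 10 genes described here encode transcription factors and coregulators known for sex-biased gene expression in mouse liver, or for keeping the liver programme on which that bias acts. They are Cux2, Bcl6, Trim24, Hnf4a, Onecut1, Tox, Nr1i3, Nr1i2, Foxa1 and Foxa2. They were chosen by gene symbol, and all 10 were found among the 17242 genes measured at 12 weeks and the 18531 genes measured at 18 months. The mice were wild-type C57BL/6 animals that were castrated or given sham surgery when 8 weeks old. Kidney and liver were taken from castrated males, sham-operated females and sham-operated males at 12 weeks or 18 months. The 46 libraries of polyadenylated RNA form 12 groups, with 3 libraries in every sham group and, in each tissue, 6 of castrated males at 12 weeks and 5 at 18 months. The series addresses whether castration of males relates to sex differences in ageing.

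In mice the pituitary releases growth hormone in pulses in males and more steadily in females, and androgens help to set the male pattern. In hepatocytes the growth hormone receptor acts through the kinase JAK2 and the transcription factor STAT5, which is activated intermittently in males and more evenly in females. BCL6 binds many of the same DNA sites as STAT5 and represses genes that are higher in females, whereas CUX2 is a female-biased factor that represses genes higher in males. HNF4A, ONECUT1 and the FOXA factors hold open and drive much of the hepatocyte programme, and the receptors CAR (Nr1i3) and PXR (Nr1i2) control genes of drug and bile acid handling.

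The deposited RNA tables hold 1 mean per group, in FPKM at 12 weeks, a scale per transcript length, and at 18 months in a normalized expression unit without a stated name. The spread over libraries and the sequencing depth are unknown, and the ages were not tested against each other. Calls of "rose" or "fell" rest on adjusted p-values under 0.05 in the authors' deposited tables, and no p-value was computed here. At 12 weeks each gene has a single entry, for 1 of the 3 comparisons only, so a member listed for another comparison has no test for this one. Nothing says whether libraries of a group came from separate animals, so the authors' p-values measure only the spread between these libraries. The other nephron segment markers summed to at most 0.380 FPKM in the 12-week livers, and the 10 hepatocyte markers summed to 63.5 FPKM in castrated males, 99.1 in sham females and 172 in sham males of 12-week kidney. Macrophage markers in 12-week liver summed to 111 FPKM in castrated males, 206 FPKM in sham females and 66.2 FPKM in sham males, and endothelial markers to 87.7, 84.1 and 65.7 FPKM in castrated males, sham females and sham males; their part in the members' values was not tested. Albumin, a defining hepatocyte gene, is listed at 0 in all 3 groups of 12-week liver, and was kept at that level among the hepatocyte markers.

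In liver at 12 weeks, castrated males differed from sham males in 7 of the 10 members and these 7 are all those listed for that comparison in the authors' deposited table. Cux2, Trim24, Tox, Nr1i2 and Foxa2 rose, and Bcl6 and Onecut1 fell. Over all genes listed for castration in 12-week liver, 24.9% were called, with 12.1% higher and 12.8% lower, and over all genes in the table the share was 12.2%. The median difference of the 10 members in log2(mean + 1) was 0.59, against -0.02 over the 10670 genes whose mean reached 1 in some liver group. In 18-month liver 3 of the 10 members rose and none fell by the authors' deposited table, where 2.09% of all tested genes were called (1.08% higher and 1.01% lower). The 3 were Cux2, Trim24 and Tox. The members' median difference there was 0.59 and that of all 11351 genes was 0.13. The authors' log2 folds do not carry this shift of the means, since the log2 ratio of means exceeded the authors' fold by a median of 0.16 for castration in 18-month liver.

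**Figure D1:**
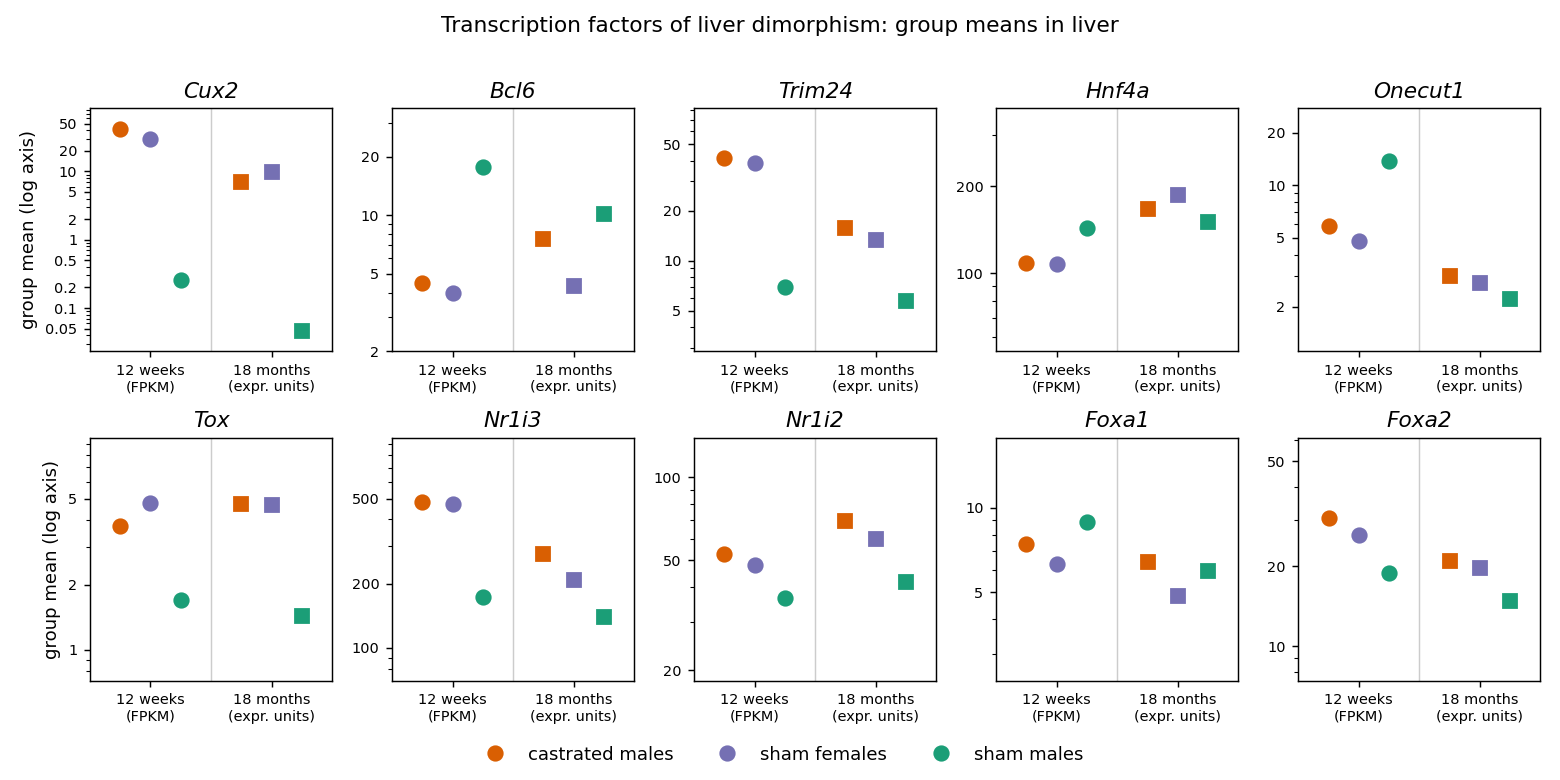
Group means of the 10 members in liver, on a log axis, in FPKM at 12 weeks (circles) and in unnamed expression units at 18 months (squares), with castrated males, sham females and sham males in that order within each age. Each point is 1 deposited group mean with no spread; Cux2 has sham male means of 0.260 and 0.0467, far below the other groups at both ages, and Bcl6 is highest in sham males at both ages.

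Cux2 (mm10 chromosome 5, 121856366 to 122050102, minus strand) encodes a CUT-homeodomain repressor. In 12-week liver its mean was 41.9 FPKM in castrated males, 30.0 FPKM in sham females and 0.260 FPKM in sham males. The castrated male mean was 161 times and the female mean 115 times the sham male mean. Cux2 rose after castration by 5.09 on the log2(mean + 1) scale, with an adjusted p of 0.000856 in the authors' deposited table, the smallest adjusted p that the 12-week liver table holds. The 18-month liver means were 6.92 in castrated males, 9.79 in sham females and 0.0467 in sham males. Sham males were thus again the low group, and the castrated and female means lay close together. In the authors' deposited table the 18-month log2 fold was 7.05 for castration (implied SE 0.665, adjusted p 1.92e-23) and 7.65 for females against sham males (adjusted p 2.44e-14). Castrated males against sham females gave a log2 fold of -0.58 in the authors' deposited table, with an implied 95% interval of -2.23 to 1.06.

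Bcl6 (mm10 chromosome 16, 23965052 to 23988852, minus strand) encodes a zinc-finger repressor that is also the master factor of germinal centre B cells. The RefSeq table gives Bcl6 a window before each of 2 transcript starts, and the 250 bases before both hold the core TTCNNNGAA, which STAT5 and BCL6 both recognise. The windows are shown because Bcl6 is the only member with this core among the 9 members and 15 windows that could be searched. Capitals mark the core, read on the strand of the gene from RefSeq, build GRCm38.p6. The upstream window is chr16:23988853-23989102 and the window inside the gene is chr16:23981284-23981533, both on the minus strand.
Bcl6 upstream window: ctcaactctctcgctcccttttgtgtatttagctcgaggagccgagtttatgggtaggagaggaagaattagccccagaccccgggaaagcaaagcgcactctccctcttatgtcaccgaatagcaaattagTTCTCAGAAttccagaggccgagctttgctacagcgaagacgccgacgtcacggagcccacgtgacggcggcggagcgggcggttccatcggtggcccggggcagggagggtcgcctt
Bcl6 internal window: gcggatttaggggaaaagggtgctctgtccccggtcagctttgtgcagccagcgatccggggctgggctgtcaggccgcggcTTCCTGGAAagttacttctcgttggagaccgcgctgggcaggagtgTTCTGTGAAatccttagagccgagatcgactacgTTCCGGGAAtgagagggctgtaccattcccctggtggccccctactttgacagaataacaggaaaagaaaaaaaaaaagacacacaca

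The upstream Bcl6 window holds 1 core, starting 118 bases before the start site, and the internal window holds 3, at 168, 122 and 88 bases before it. The core reads the same on both strands, and 2306 of 32851 windows of the same length (7.02%) hold at least 1 copy. At least 3 copies occur in 9 windows (0.0274%). A match of letters describes the sequence only, and binding was not measured.

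In 12-week liver the Bcl6 mean was 4.50 FPKM in castrated males, 3.997 FPKM in sham females and 17.8 FPKM in sham males. Sham males were the high group, at 3.94 times castrated males and 4.44 times sham females. Bcl6 fell after castration by 1.77 on the log2(mean + 1) scale, with an adjusted p of 0.000856 in the authors' deposited table. In 18-month liver the means were 7.55 in castrated males, 4.35 in sham females and 10.2 in sham males. Castrated males lay between the other groups there. In the authors' deposited table the castration log2 fold at 18 months was -0.45, with an implied 95% interval of -1.22 to 0.33 and an adjusted p of 0.881. The same table gives a fall in sham females against sham males, with a log2 fold of -1.21 (implied SE 0.197, adjusted p 9.50e-08). Castrated males against sham females gave 0.77, with an implied interval of -0.01 to 1.56 and an adjusted p of 0.519 in the authors' deposited table.

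The B cell markers moved beside Bcl6 in the opposite direction. Their 8 genes summed to 27.8 FPKM in castrated males, 17.9 FPKM in sham females and 9.41 FPKM in sham males of 12-week liver, and 6 of 8 rose after castration in the authors' deposited table. Those 6 are the only B cell markers listed for castration there, where 24.9% of listed genes and 12.2% of all genes were called. In 18-month liver the B cell sums were 30.0 in castrated males, 25.5 in sham females and 11.5 in sham males. Of the 8, 0 were called for castration by the authors' DESeq2 test, with 0 at a p under 0.05 before adjustment. Over all tested genes 2.09% were called there. In bulk tissue, fewer cells of a type and less RNA per cell cannot be told apart. The part of B cells in the Bcl6 values was not tested.

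Trim24 (mm10 chromosome 6, 37870811 to 37966296, plus strand) encodes a tripartite-motif coregulator that binds nuclear receptors and reads histone marks. Of its 2 RefSeq windows, the internal one, chr6:37900237-37900486 on the plus strand, is shown because it holds 3 copies of AGGTCA, the core that many nuclear receptors recognise. The copies lie on the opposite strand, so the capitals read TGACCT, and they start 109, 77 and 44 bases before the start site. Nearly the same bases follow each copy, so the copies are part of a repeated stretch and not independent matches.
Trim24 internal window: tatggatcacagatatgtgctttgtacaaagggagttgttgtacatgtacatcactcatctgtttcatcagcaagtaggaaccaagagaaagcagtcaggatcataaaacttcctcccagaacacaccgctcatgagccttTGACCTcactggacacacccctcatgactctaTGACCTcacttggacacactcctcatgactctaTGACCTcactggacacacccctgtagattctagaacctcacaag

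Of the 32851 windows, 4607 (14.0%) hold AGGTCA on either strand, and 43 (0.131%) hold at least 3 copies. Trim24 was the only member with it in a window searched. The same core repeated in tandem with 1 base between the copies, which overlaps the shorter search, occurs in 11 windows (0.0335%), none of them of a member.

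In 12-week liver the Trim24 mean was 41.1 FPKM in castrated males, 38.6 FPKM in sham females and 6.996 FPKM in sham males. The castrated and female means lay close together, at 5.88 and 5.52 times the sham male mean. Trim24 rose after castration by 2.40 on the log2(mean + 1) scale, with an adjusted p of 0.000856 in the authors' deposited table. In 18-month liver the means were 15.7 in castrated males, 13.3 in sham females and 5.73 in sham males, with the same order of groups. In the authors' deposited table the log2 fold was 1.26 for castration (implied SE 0.228, adjusted p 5.10e-06) and 1.01 for females against sham males (adjusted p 0.0108). Castrated males against sham females gave 0.25 in that deposited table, with an implied interval of -0.19 to 0.69.

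Tox (mm10 chromosome 4, 6686353 to 6991557, minus strand) encodes an HMG-box factor that is female-biased in mouse liver and is also required for T cell development in the thymus. In 12-week liver its mean was 3.74 FPKM in castrated males, 4.78 FPKM in sham females and 1.70 FPKM in sham males. Tox rose after castration by 0.81 on the log2(mean + 1) scale, with an adjusted p of 0.000856 in the authors' deposited table. In 18-month liver the means were 4.73 in castrated males, 4.69 in sham females and 1.44 in sham males. Sham males were the low group at both ages. In the authors' deposited table the 18-month log2 fold was 1.55 for castration (implied SE 0.220, adjusted p 4.16e-10) and 1.49 for females against sham males (adjusted p 0.00861). Castrated males against sham females gave 0.07 in the same deposited table, with an implied interval of -0.59 to 0.73.

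T cell markers moved in the same direction as Tox in liver. The 12 markers summed to 10.3 FPKM in castrated males, 9.01 FPKM in sham females and 3.55 FPKM in sham males at 12 weeks, where 3 of 12 rose after castration. Only 4 of the 12 are listed for castration there, where 24.9% of listed genes and 12.2% of all genes were called. At 18 months the sums were 10.5 in castrated males, 13.3 in sham females and 2.76 in sham males. After castration 2 of 12 had risen there, where 2.09% of all tested genes were called. Females were higher than sham males in 5 of 12, where 9.78% of all tested genes were called. Cd3g, a chain of the T cell receptor complex, had a 12-week mean of 3.20 FPKM in castrated males, 2.50 FPKM in sham females and 0.731 FPKM in sham males. It rose after castration with an adjusted p of 0.0201 in the authors' deposited table. None of the 12 T cell markers was at 0 in every group of 12-week liver, and their part in the Tox values was not tested. In kidney at 12 weeks the same markers summed to 11.2 FPKM in castrated males, 13.7 FPKM in sham females and 7.48 FPKM in sham males. Tox itself had 0.371 FPKM in castrated males, 0.362 FPKM in sham females and 0.376 FPKM in sham males there. In 18-month kidney the markers summed to 22.2 in castrated males, 11.9 in sham females and 14.2 in sham males, highest in castrated males, as Tox was with 0.928 in castrated males, 0.720 in sham females and 0.563 in sham males. For castration there, 0 of 12 markers were called by the authors' DESeq2 test, with 4 at a p under 0.05 before adjustment. Over all tested genes 22.7% were called in that comparison.

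Hnf4a (mm10 chromosome 2, 163506808 to 163572910) encodes a nuclear receptor-type factor that liver and proximal tubule both use. In 12-week liver its mean was 108.5 FPKM in castrated males, 107.5 FPKM in sham females and 143 FPKM in sham males. Hnf4a is listed only for castrated males against sham females at 12 weeks, with a difference of 0.01 in log2(mean + 1) and an adjusted p of 0.985 in the authors' deposited table. The lower castrated and female levels therefore have no test. At 18 months Hnf4a had liver means of 166 in castrated males, 185 in sham females and 150.05 in sham males, so sham males were then the lowest group. The castration log2 fold of Hnf4a there was -0.03 in the authors' deposited table, with an implied interval of -0.41 to 0.34, and the difference of its means, 0.15, was about that of the median gene.

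Onecut1 (mm10 chromosome 9, 74861921 to 74891781), also called HNF6, encodes a CUT-homeodomain activator of hepatocyte and bile duct genes. In 12-week liver its mean was 5.85 FPKM in castrated males, 4.79 FPKM in sham females and 13.9 FPKM in sham males. Onecut1 fell after castration by 1.12 on the log2(mean + 1) scale, with an adjusted p of 0.00454 in the authors' deposited table. Onecut1 means in 18-month liver were 3.03 in castrated males, 2.73 in sham females and 2.22 in sham males. Sham males were the high group at 12 weeks and the low group at 18 months, and the castration log2 fold of 0.33 at 18 months had an implied interval of -0.93 to 1.59 in the authors' deposited table. Cholangiocyte markers, which label the bile duct cells that also use Onecut1, summed to 136 FPKM in castrated males, 132 FPKM in sham females and 137 FPKM in sham males of 12-week liver. At 18 months the 8 markers summed to 165 in castrated males, 167 in sham females and 95.4 in sham males, so sham males were the low group there, as for Onecut1. Spp1 was the 1 marker called for castration at that age, where it rose and 2.09% of all tested genes were called. The markers' part in the Onecut1 values was not tested.

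Foxa1 (mm10 chromosome 12, 57540628 to 57546916) and Foxa2 (mm10 chromosome 2, 148042877 to 148046969) encode pioneer factors that open chromatin at liver genes. Foxa1 had 12-week liver means of 7.43 FPKM in castrated males, 6.27 FPKM in sham females and 8.85 FPKM in sham males. It is listed for the sex comparison and fell in females by 0.44 on the log2(mean + 1) scale, with an adjusted p of 0.0381 in the authors' deposited table. At 18 months the Foxa1 means were 6.39 in castrated males, 4.83 in sham females and 5.94 in sham males, and the female log2 fold of -0.46 had an adjusted p of 0.199 in the authors' deposited table. Foxa2 had its lowest mean in sham males at 12 weeks, with 30.6 FPKM in castrated males, 26.3 FPKM in sham females and 18.8 FPKM in sham males. It rose after castration by 0.67 on the log2(mean + 1) scale, with an adjusted p of 0.00223 in the authors' deposited table. The 18-month Foxa2 means were 20.9 in castrated males, 19.7 in sham females and 14.8 in sham males, where the castration log2 fold of 0.35 had an implied interval of -0.15 to 0.85 in the authors' deposited table.

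Nr1i3 (mm10 chromosome 1, 171213970 to 171220701) encodes CAR, a xenobiotic receptor held in the cytoplasm until it is activated. Its 12-week liver mean was 482 FPKM in castrated males, 472 FPKM in sham females and 173 FPKM in sham males, the highest level per length of the 10 members in each of the 3 groups. Nr1i3 is listed for the sex comparison and rose in females by 1.44 on the log2(mean + 1) scale, with an adjusted p of 0.000856 in the authors' deposited table. The castrated male mean was 2.78 times the sham male mean and has no test at that age. Nr1i3 means at 18 months were 276 in castrated males, 208 in sham females and 140.3 in sham males. The castration log2 fold of 0.82 had a p of 0.0346 before adjustment and an adjusted p of 0.489 in the authors' deposited table. For females against sham males the 18-month log2 fold was 0.39, with an implied interval of -0.39 to 1.17. Its adjusted p was 0.691 by the authors' DESeq2 test, so the 12-week rise in females was not called at 18 months. Exons of Nr1i3 overlap Tomm40l on the opposite strand, and no source used here says whether counting used strand, so reads of their shared part cannot be told apart. The same holds for Tox with the antisense gene Gm11802, for Bcl6 with Gm37419 and, on the same strand, for Onecut1 with the lincRNA Gm20649.

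Nr1i2 (mm10 chromosome 16, 38248323 to 38294824) encodes PXR, a receptor for steroids, bile acids and drugs. Its 12-week liver mean was 52.7 FPKM in castrated males, 48.1 FPKM in sham females and 36.7 FPKM in sham males. Nr1i2 rose after castration by 0.51 on the log2(mean + 1) scale, with an adjusted p of 0.00895 in the authors' deposited table. Nr1i2 means at 18 months were 69.5 in castrated males, 60.03 in sham females and 41.9 in sham males, in the same order. The castration log2 fold of 0.59 had a p of 0.0356 before adjustment and an adjusted p of 0.494 in the authors' deposited table.

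Females differed from sham males in 4 members in 18-month liver, where the authors' deposited table called 9.78% of all tested genes (5.87% higher and 3.91% lower). Cux2, Trim24 and Tox were higher and Bcl6 was lower in females. In the same comparison 7 of 10 endothelial markers were higher in females and none lower, with sums of 122 in sham females and 59.6 in sham males. Of 10 macrophage markers, 5 were higher in females and none lower, with sums of 325 in sham females and 84.0 in sham males. The endothelial and macrophage sums in castrated males were 69.0 and 127, with 0 of 10 called for castration in either list by the authors' DESeq2 test and 0 at a p under 0.05 before adjustment. The part of these markers in the members' values was not tested. At 12 weeks 2 members are listed for that comparison, Nr1i3 and Foxa1, and both were called, as were all 628 genes listed there (100.0%, with 47.1% higher and 52.9% lower), which are 3.64% of all genes, so the listing fixes that count. By a limit of 2-fold on mean + 1, with no test, 4 members were higher and 2 lower in females than in sham males at 12 weeks, where 5.22% of all genes passed in either direction. Between castrated males and sham females, 0 of the 10 members were called in 18-month liver by the authors' DESeq2 test, and 0 had a p under 0.05 before adjustment, where 1.13% of all tested genes were called. At 12 weeks Hnf4a is the only member listed for castrated males against sham females, and it was not called by the authors' test (p 0.938 before adjustment in the authors' deposited table), where 4.71% of the listed genes and 2.22% of all genes were. The castration and sex comparisons share the sham male libraries.

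**Figure D2:**
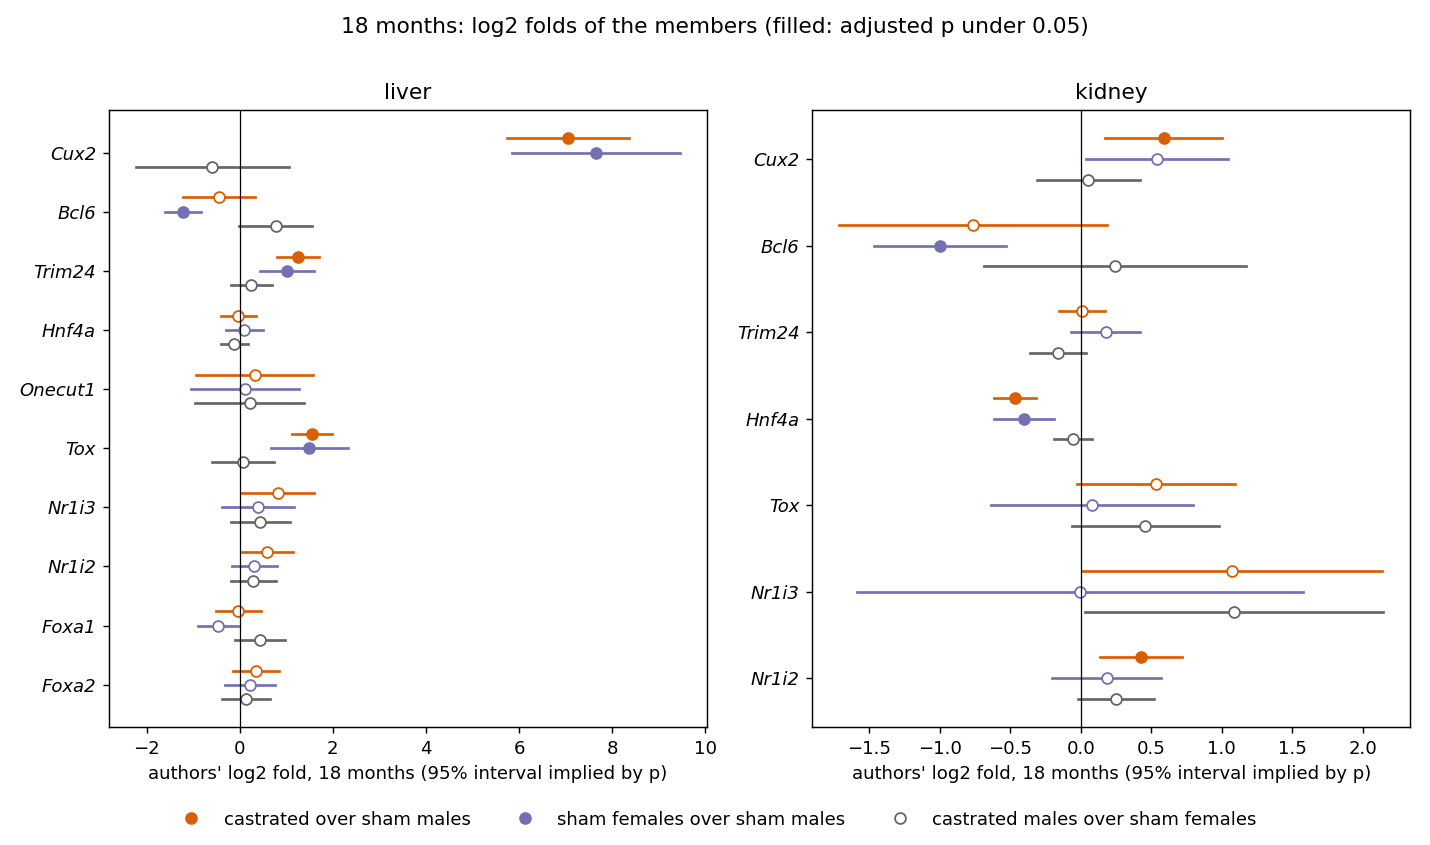
The authors' log2 folds at 18 months, for all 10 members in liver. The kidney panel leaves out Onecut1, Foxa1 and Foxa2, and with them the called castration fold of Foxa1. Comparisons are castrated against sham males, sham females against sham males and castrated males against sham females. Points are filled where the adjusted p was under 0.05. Lines show the 95% interval implied by each p-value; in liver Cux2 stands at 7.05 and 7.65 for the first 2 comparisons, while every liver interval of the third includes 0.

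In 12-week kidney Nr1i3 and Nr1i2 rose and Bcl6 and Hnf4a fell after castration, which are the 4 members listed for that comparison in the authors' deposited table, where 48.6% of listed genes (22.6% higher and 26.0% lower) and 15.8% of all genes were called. At 18 months Cux2, Nr1i2 and Foxa1 rose and Hnf4a fell, where the authors' deposited table called 22.7% of all tested genes (9.56% higher and 13.1% lower). The members were not tested as a set against these shares. The members' median difference for castration was 0.10 at 12 weeks and 0.19 at 18 months, against 0.02 and 0.13 over all genes.

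Bcl6 had a 12-week kidney mean of 2.92 FPKM in castrated males, 2.43 FPKM in sham females and 13.0 FPKM in sham males. As in liver, sham males were the high group, at 4.44 times castrated males, and the fall after castration of 1.83 on the log2(mean + 1) scale had an adjusted p of 0.000476 in the authors' deposited table. At 18 months the Bcl6 means were 8.40 in castrated males, 7.14 in sham females and 12.7 in sham males. The castration log2 fold of -0.76 had an implied interval of -1.71 to 0.19 and an adjusted p of 0.291, and the female log2 fold of -0.99 had an adjusted p of 0.000427, in the authors' deposited table. B cell markers in kidney summed to 38.3 FPKM in castrated males, 48.8 FPKM in sham females and 15.1 FPKM in sham males at 12 weeks. At 18 months they summed to 71.8 in castrated males, 66.3 in sham females and 69.8 in sham males.

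Hnf4a in 12-week kidney had 101.7 FPKM in castrated males, 93.6 FPKM in sham females and 149.6 FPKM in sham males, so its kidney level per length was close to that in liver. Hnf4a fell after castration by 0.55 on the log2(mean + 1) scale, with an adjusted p of 0.00671 in the authors' deposited table. At 18 months the means were 223 in castrated males, 229 in sham females and 277 in sham males, again highest in sham males. In the authors' deposited table the log2 fold was -0.46 for castration (implied SE 0.0771, adjusted p 4.70e-08) and -0.40 for females against sham males (implied SE 0.107, adjusted p 0.00189). Markers of the proximal tubule, whose cells use Hnf4a, rose in 1 and fell in 2 of 10 genes after castration at 12 weeks, and rose in 2 and fell in 5 at 18 months. Markers of other nephron segments rose in 2 and fell in 4 of 11 at 12 weeks, with a list median of -0.26 on the log2(mean + 1) scale, and rose in 7 with none falling at 18 months, with a median of 0.61. At 12 weeks only 3 of the 10 and 6 of the 11 markers are listed for castration, and all of those were called. The other markers have no test there, so the counts of the 2 ages are not comparable. For castration in kidney, 48.6% of listed genes and 15.8% of all genes at 12 weeks and 22.7% of tested genes at 18 months were called. The markers' part in the Hnf4a values was not tested.

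Nr1i2 had 12-week kidney means of 4.92 FPKM in castrated males, 3.88 FPKM in sham females and 2.12 FPKM in sham males. It rose after castration by 0.93 on the log2(mean + 1) scale, with an adjusted p of 0.000476 in the authors' deposited table. At 18 months its means were 7.01 in castrated males, 6.20 in sham females and 4.87 in sham males, and the castration log2 fold was 0.43 with an adjusted p of 0.0222 in the authors' deposited table. Nr1i3 had 2.02 FPKM in castrated males, 1.77 FPKM in sham females and 0.394 FPKM in sham males at 12 weeks, a rise of 1.12 with an adjusted p of 0.0179 in the authors' deposited table. At 18 months Nr1i3 had 0.928 in castrated males and 0.370 in both sham groups. Its log2 fold against sham males was 1.07 with an adjusted p of 0.152, and against sham females 1.09 with an adjusted p of 0.256, in the authors' deposited table.

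Cux2 had 12-week kidney means of 2.60 FPKM in castrated males, 3.22 FPKM in sham females and 1.16 FPKM in sham males. It is listed for the sex comparison and rose in females by 0.96 on the log2(mean + 1) scale, with an adjusted p of 0.00127 in the authors' deposited table. The 18-month kidney means were 0.914 in castrated males, 0.873 in sham females and 0.543 in sham males. The castration log2 fold of Cux2 was 0.59 there, with an implied SE of 0.211 and an adjusted p of 0.0271 in the authors' deposited table. Its female log2 fold of 0.54 was not called, with a p of 0.0344 before adjustment and an adjusted p of 0.151 by the authors' DESeq2 test. Sham males were the only group in which the Cux2 mean was higher in kidney than in liver, at both ages. At 12 weeks the liver mean was 16.1 times the kidney mean in castrated males and 9.32 times in sham females, against 0.224 times in sham males.

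Trim24 had 12-week kidney means of 22.2 FPKM in castrated males, 24.4 FPKM in sham females and 16.9 FPKM in sham males, and it rose in females by 0.51 with an adjusted p of 0.0284 in the authors' deposited table. At 18 months its means were 10.4 in castrated males, 11.5 in sham females and 9.22 in sham males, and the castration log2 fold of 0.01 had an implied interval of -0.15 to 0.17 in the authors' deposited table. Its female log2 fold of 0.18 at 18 months was not called, with an adjusted p of 0.423 by the authors' DESeq2 test. For females against sham males 2 of 10 members were called in kidney at each age, Cux2 and Trim24 higher at 12 weeks and Bcl6 and Hnf4a lower at 18 months. At 12 weeks Cux2 and Trim24 are the only members listed for females against sham males, so no other member could be called. Bcl6 and Hnf4a have no such test at 12 weeks, with female differences of -2.02 and -0.67 in log2(mean + 1), so the members called cannot be compared between ages. In the authors' deposited tables, 81.4% of genes listed for that comparison at 12 weeks were called (41.8% higher and 39.7% lower), or 15.1% of all genes. At 18 months 16.8% of tested genes were called (7.91% higher and 8.9% lower). For castrated males against sham females no member was called in kidney at either age by the authors' tests, where 5.14% of listed genes and 2.52% of all genes at 12 weeks and 7.14% of tested genes at 18 months were. At 12 weeks only 4 members are listed for that comparison in kidney, Onecut1, Tox, Foxa1 and Foxa2, and the other members have no test. The highest kidney mean among these 4 was 0.376 FPKM, for Tox in sham males, so the 12-week count says little. Before adjustment the count was 0 of these 4 at 12 weeks and 1 of 10 at 18 months, which is Nr1i3.

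The remaining members had means under 1 in every kidney group. Tox at 18 months had 0.928 in castrated males, 0.720 in sham females and 0.563 in sham males, with a castration log2 fold of 0.53 and an implied interval of -0.03 to 1.09 in the authors' deposited table. Onecut1 was listed at 0 in castrated males and sham females at 12 weeks, with 0.0147 FPKM in sham males. Foxa2 did not exceed 0.0990 FPKM in any group of 12-week kidney. Foxa1 at 18 months had 0.188 in castrated males, 0.120 in sham females and 0.0167 in sham males. Its castration log2 fold of 4.52 (implied SE 1.404, adjusted p 0.00837 in the authors' deposited table) is thus a difference between means close to 0.

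**Figure D3:**
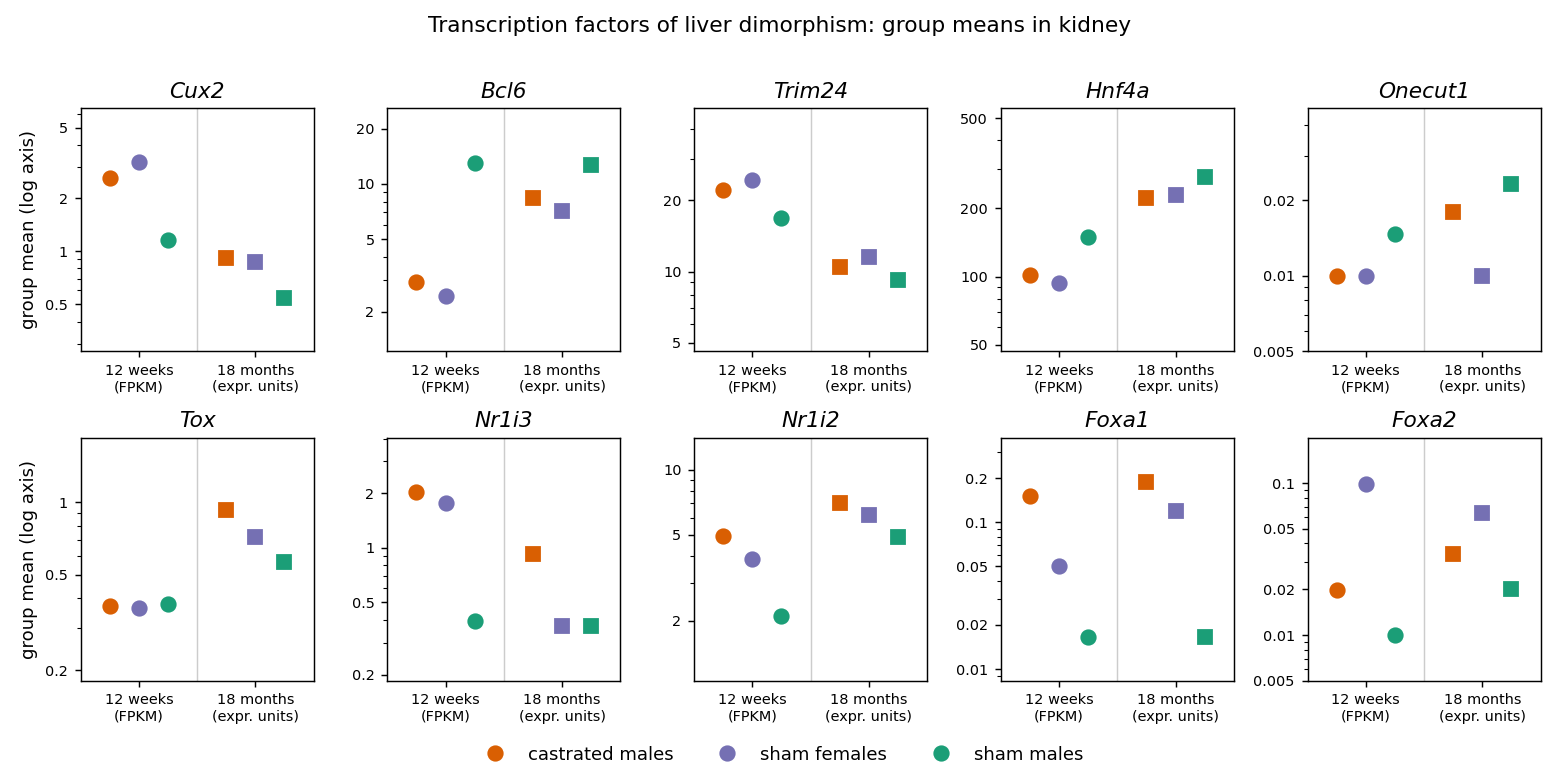
Group means of the 10 members in kidney, on log axes, in FPKM at 12 weeks (circles) and in unnamed expression units at 18 months (squares), with castrated males, sham females and sham males in that order within each age. Each point is 1 deposited group mean with no spread; Bcl6 and Hnf4a are highest in sham males at both ages, while Onecut1, Foxa1 and Foxa2 stay below 0.2 throughout.

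Sex-biased liver genes, among them known targets of CUX2, BCL6 and STAT5, changed in large numbers after castration. At 12 weeks a list gene that is listed for another comparison counts as not called. Of 24 male-biased liver genes, 16 fell and none rose after castration at 12 weeks, and 22 fell and none rose at 18 months, with list medians of -2.66 and -2.68 on the log2(mean + 1) scale. Elovl3, a fatty acid elongase, had 0.513 FPKM in castrated males, 0.661 FPKM in sham females and 251 FPKM in sham males of 12-week liver. Mup20, the urinary protein darcin, had 250.1 in castrated males, 70.3 in sham females and 14460.3 in sham males of 18-month liver. Of 30 female-biased liver genes, 11 rose and none fell after castration at 12 weeks, and 25 rose and none fell at 18 months, with medians of 1.95 and 3.34. Cyp2b9, a cytochrome P450, had 229 FPKM in castrated males, 155 FPKM in sham females and 0.0486 FPKM in sham males at 12 weeks. Sult2a1, a steroid sulfotransferase, had 394 in castrated males, 1207 in sham females and 0.170 in sham males at 18 months. Against sham females, 12 of the 30 female-biased genes were lower and 1 higher in castrated males at 12 weeks, and 3 were lower at 18 months, Cyp3a44, Sult1e1 and Sult2a1. These lists were drawn from known sex-biased genes with earlier results of these data in view, so their direction is no independent evidence.

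Of 13 family relatives of the members, 3 were called for castration in 12-week liver, among 7 listed for it, where the authors' deposited table called 12.2% of all genes and 24.9% of those listed. Foxa3, another FOXA factor of liver, and Cux1, the close relative of Cux2, fell, and Trim28, a corepressor of the Trim24 family, rose. Cux1 had 3.20 FPKM in castrated males, 3.44 FPKM in sham females and 5.82 FPKM in sham males of 12-week liver, the opposite order to Cux2, with an adjusted p of 0.00157 in the authors' deposited table. Foxa3 had 14.7 FPKM in castrated males, 13.9 FPKM in sham females and 31.7 FPKM in sham males, so sham males were high where they were low for Foxa2. At 18 months Onecut2 was the only relative called for castration in liver, where 2.09% of all tested genes were, with 6.87 in castrated males, 5.83 in sham females and 3.77 in sham males. In kidney, Cux1 fell after castration at both ages, with 27.4 FPKM in castrated males, 29.7 FPKM in sham females and 45.8 FPKM in sham males at 12 weeks. Hnf4g, the relative of Hnf4a, had 3.08 in castrated males, 1.85 in sham females and 4.51 in sham males of 18-month kidney, and its female log2 fold was -1.41 with an adjusted p of 6.05e-09 in the authors' deposited table.

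Of 18 other liver-enriched transcription factors, 3 are listed for castration in 12-week liver, and 2 of them rose. The shares called there were 12.2% of all genes and 24.9% of those listed. In 18-month liver 0 of the 18 were called for castration by the authors' DESeq2 test, with 0 at a p under 0.05 before adjustment. Over all tested genes 2.09% were called in that comparison. Nr1h4, the bile acid receptor FXR, had 126 FPKM in castrated males, 100.2 FPKM in sham females and 84.5 FPKM in sham males at 12 weeks. Nr0b2, the corepressor SHP, had 42.5 FPKM in castrated males, 39.7 FPKM in sham females and 30.7 FPKM in sham males.

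Of 12 genes in the growth hormone receptor to STAT5 pathway, 3 are listed for castration in 12-week liver. Socs1 was the only 1 called and rose, with a mean below 1 FPKM in every liver group. The shares called there were 12.2% of all genes and 24.9% of those listed. Socs2 and Socs3 rose in 18-month liver, where 2.09% of tested genes were called. These called genes encode feedback inhibitors. Socs2, a STAT5-induced inhibitor of the receptor, had 12.8 in castrated males, 8.18 in sham females and 2.35 in sham males at 18 months. Its castration log2 fold was 2.42 (implied SE 0.440, adjusted p 5.43e-06) in the authors' deposited table. At 12 weeks Socs2 had 57.8 FPKM in castrated males, 21.8 FPKM in sham females and 16.3 FPKM in sham males, and it was higher in castrated males than in females with an adjusted p of 0.000856 in the authors' deposited table. The list median for castration was 0.23 at 12 weeks and 0.36 at 18 months, against -0.02 and 0.13 over all genes.

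Target genes of CAR and PXR went both ways in liver. Nr1i3 and Nr1i2 had their lowest means in sham males at both ages, and neither was called for castration at 18 months. Nr1i3 has no castration test at 12 weeks. Of 22 targets, 12 are listed for castration at 12 weeks, where 5 rose and 4 fell, and 4 rose and 1 fell at 18 months. The shares called were 12.2% of all genes and 24.9% of those listed at 12 weeks, and 2.09% of tested genes at 18 months. Slco1a4, an organic anion transporter, had 77.9 FPKM in castrated males, 78.9 FPKM in sham females and 12.9 FPKM in sham males at 12 weeks. Aldh1a7, an aldehyde dehydrogenase, had 43.1 FPKM in castrated males, 51.7 FPKM in sham females and 114 FPKM in sham males. Cyp2b10, the classic CAR target, rose after castration at 18 months, with 16.6 in castrated males, 24.3 in sham females and 1.94 in sham males and a log2 fold of 2.97 (adjusted p 9.90e-07) in the authors' deposited table. Of 12 partners and coregulators of the receptors, 4 are listed for castration at 12 weeks, where Dnajc7 and Nr0b2 rose and Hsp90ab1 fell. Dnajc7 and Hsp90ab1 encode chaperones that hold CAR in the cytoplasm. Hsp90ab1 had 180.1 FPKM in castrated males, 186 FPKM in sham females and 293 FPKM in sham males of 12-week liver. Of the 12, 0 were called in 18-month liver for castration by the authors' DESeq2 test, and 1 had a p under 0.05 before adjustment.

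HNF4A target genes went both ways after castration in 12-week liver, where 2 of 20 rose and 4 fell. Those 6 were among 7 listed for the comparison, in which the authors' deposited table called 12.2% of all genes and 24.9% of those listed. Of the 20, 0 were called for castration in 18-month liver by the authors' DESeq2 test, with 2 at a p under 0.05 before adjustment. G6pc, glucose-6-phosphatase, had 54.7 FPKM in castrated males, 42.1 FPKM in sham females and 207 FPKM in sham males at 12 weeks. Abcg5, a sterol transporter subunit, had 123 FPKM in castrated males, 109 FPKM in sham females and 62.4 FPKM in sham males. At 18 months Cyp7a1, the rate-limiting enzyme of bile acid synthesis, had 19.0 in castrated males, 79.2 in sham females and 16.1 in sham males. The female log2 fold of Cyp7a1 was 2.10 with an adjusted p of 9.58e-10 in the authors' deposited table.

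**Figure D4:**
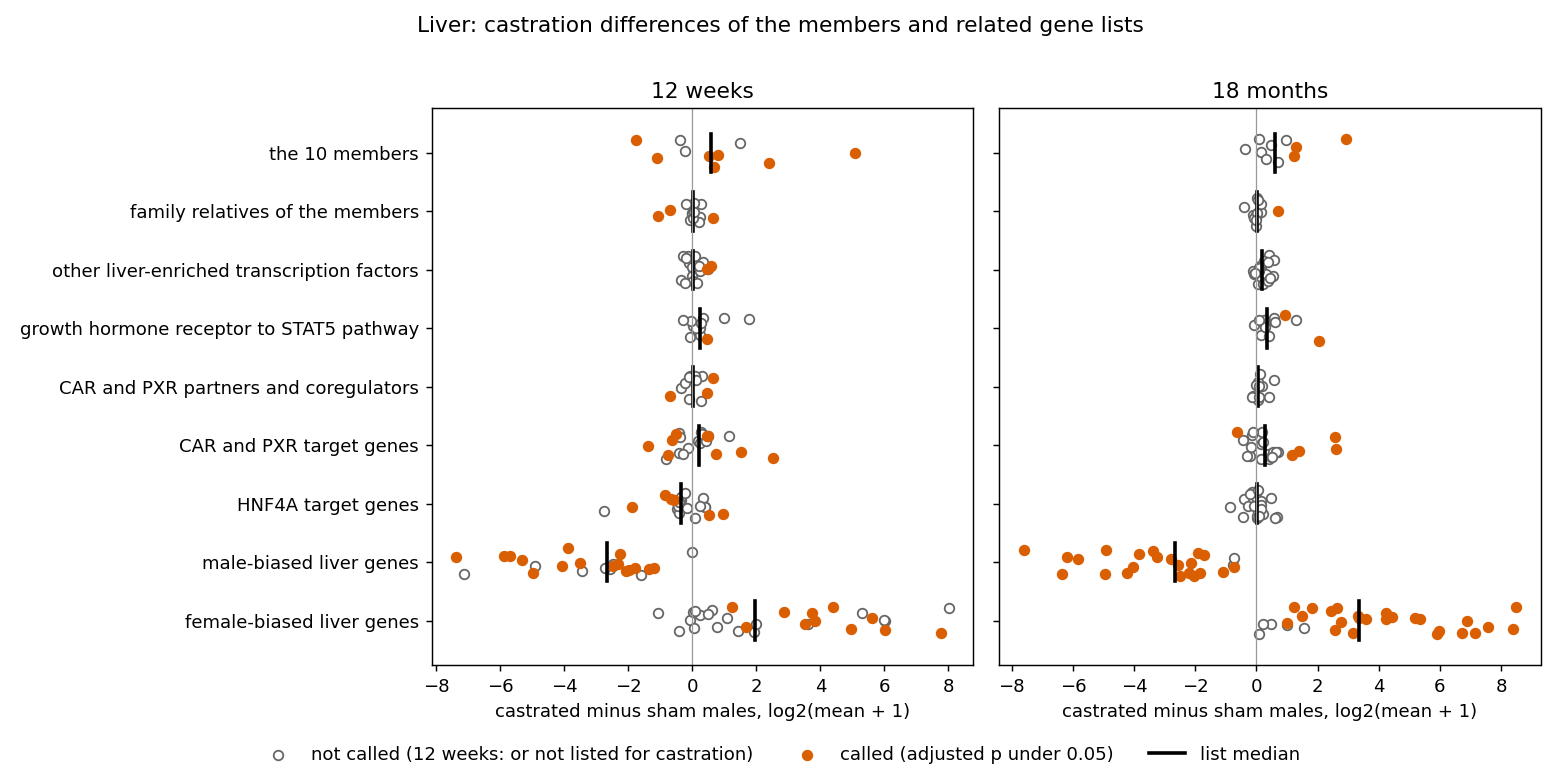
Castration differences in liver, castrated minus sham males in log2(mean + 1), for the 10 members and 8 related gene lists at 12 weeks and 18 months. Each point is 1 gene, filled where the adjusted p was under 0.05, and bars are list medians; male-biased genes lie at a median of -2.66 and -2.68 and female-biased genes at 1.95 and 3.34, while relatives of the members sit around 0.

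The genes with the profile most like a member were sought over the 6 liver group means, as the Euclidean distance between log2(mean + 1) values centred within each age. Closest to Cux2 were Acot3, an acyl-CoA thioesterase, at a distance of 0.412, and then Hamp2, Slc22a27, Slc16a5 and Mt1. Acot3 had 89.1 FPKM in castrated males, 55.9 FPKM in sham females and 1.29 FPKM in sham males at 12 weeks. Closest to Bcl6 were Hao1, a peroxisomal glycolate oxidase, at 0.291, and then Scp2, G6pc, Hspb1 and Atg16l2. Hao1 had 59.5 FPKM in castrated males, 56.8 FPKM in sham females and 198 FPKM in sham males at 12 weeks. At 18 months it had 125 in castrated males, 72.6 in sham females and 198 in sham males. Closest to Tox were Sorbs3 at 0.229, and then Mgp, Clca3a1 and Igtp. By Pearson correlation in place of distance, 2, 0 and 1 of the 5 genes were shared for Cux2, Bcl6 and Tox. With a pseudocount of 0.1, the shared genes numbered 1 for Cux2, 3 for Bcl6 and 2 for Tox, and neither Acot3 for Cux2 nor Sorbs3 for Tox was among the 5 closest, so these neighbours depend on the measure and on the pseudocount.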

How the data were processed

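Per the labels, RNA was isolated from kidney and liver, polyadenylated RNA was enriched, and reads of 150 bp were sequenced in pairs on a DNBSEQ instrument. Per the submitters' processing notes, HISAT2, SAMtools, Cufflinks and the build mm10 were used, with versions not given in the sources used here. As values, the authors deposited FPKM at 12 weeks and a normalized expression signal of unnamed unit at 18 months, each as 1 mean per group. At 12 weeks 0.01 had been added to every mean, so 0.01 is a gene listed at 0. The lowest mean at 18 months is also 0.01, so low means of that age may hold the same constant. Per the file headers, the authors' comparison tables hold p-values and adjusted p-values, and at 18 months log2 fold changes from DESeq2. The 18-month folds run from the first named group to the second, so their sign was turned; after turning, 353 of 353 called genes of the liver castration comparison and 4047 of 4051 of the kidney one have the sign of the group means. The 12-week tables list each gene for 1 comparison by a rule not stated.

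A member was called at an adjusted p under 0.05 over all genes in the authors' table. Differences are of log2(mean + 1), which understates changes of low genes. An implied SE was obtained from the size of each log2 fold and the normal quantile matching its p, a step chosen after seeing the data. Also chosen then, a gene at 0 in 1 group and at 1000 or more in another of the tissue was treated as a failed estimate without a difference. These genes were Kap and Gpx3 in 12-week kidney and Apoe, Serpina1b and Serpina1d in 12-week liver. The members and the 16 lists were chosen with earlier results of these data known. From a list, at most 4 called genes with the largest difference were named as examples per comparison. The 5 genes with the closest profile were sought for Cux2, Bcl6 and Tox, and 1 of those for Tox is not reported here. Positions come from GENCODE vM21 and promoter windows from RefSeq, with 9 of 10 members found and Tox not. With means only, no test across libraries was made, and the tables hold no contrast of kidney with liver. The 6 metabolite tables were not used. Python 3.11.15, pandas 2.3.3, SciPy 1.17.1 and Matplotlib 3.10.9 were used, and scripts were tested on simulated data.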

Additional observations from a re-analysis of the deposited data

How the results depend on the processing

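No paired analysis was possible because the tables hold group means only, and leaving out each library in turn and testing kidney against liver could not be run for want of library values and of such a contrast. On the 28 called member differences 97 alternatives were run, and 0 turned the direction. They were other pseudocounts, the authors' folds in place of the means, and subtraction of the median gene. A pseudocount cannot change the sign of such a difference, so those runs say nothing about direction. The authors' fold also sets the direction of a call at 18 months, and the median gene moved by 0.14 at most. Counts of called members moved by more than 1.5 times as follows. With an adjusted p under 0.01, the count for females against sham males at 12 weeks was 1 in place of 2 in liver and 1 in place of 2 in kidney, and that for castration in 18-month kidney was 2 in place of 4. With a 2-fold limit on mean + 1 and no test, the counts were 6 in place of 2 for females against sham males in 12-week liver, 2 in place of 4 for castration in 12-week kidney, and 1 in place of 2 for females against sham males in 12-week kidney. The same limit gave 0 in place of 4 for castration and 0 in place of 2 for females against sham males in 18-month kidney. With unadjusted p-values under 0.05, castration in 18-month liver gave 5 in place of 3, and castrated males against sham females in 18-month kidney gave 1 in place of 0. Restricting lists to genes with a mean of at least 1 took the growth hormone to STAT5 list to 0 in place of 1 for castration in 12-week liver, and HNF4A targets to 2 in place of 4 for castrated males against females in 18-month kidney. It took the proximal tubule list to 0 in place of 1 for castration in 18-month liver and the cholangiocyte list to 0 in place of 1 for females against sham males in 12-week kidney. The B cell list gave 1 in place of 2 for castration in 12-week kidney and 1 in place of 2 for castrated males against females in 18-month kidney. The restriction removes low genes by construction. Depth is unknown, so the lowest detectable level of a member cannot be given.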
